A study of Rattus norvegicus with 15 samples.

Results

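The enzymes described here make, move and break down citrulline, arginine, ornithine, glutamine and glutamate. They are Cps1, Otc, Ass1, Asl, Arg1, Arg2, Oat, Glul and Glud1, and their mRNAs were measured in rat small intestine after Roux-en-Y gastric bypass (RYGB). Every probe carrying 1 of these 9 names on the array was taken, which gave 13 of the 41012 probes outside the controls. Each probe was kept apart, and where a gene had several, they are told apart by the base of the transcript at which they start (Oat at 591 and 1857, Glul at 1881 and 2290, Glud1 at 1435, 1626 and 2756). All 13 were well above background on each of the 15 arrays.

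In the small intestine, enterocytes take up glutamine and convert part of it, through glutamate and pyrroline-5-carboxylate, to ornithine. Oat catalyses the step between pyrroline-5-carboxylate and ornithine in the mitochondria. Cps1 and Otc then make citrulline, which leaves for the kidney, where Ass1 and Asl turn it into arginine. The arginases Arg1 and Arg2 split arginine into ornithine and urea, Glul makes glutamine from glutamate and ammonia, and Glud1 interconverts glutamate and 2-oxoglutarate.

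The 15 arrays came from 3 groups of 5 male rats. GK-S-30 were Goto-Kakizaki (GK) rats, an inbred nonobese strain with inherited type 2 diabetes, given RYGB at 16 wk of age with a Roux limb (RL, the jejunum joined to the gastric pouch) of 30 cm. GK-Sham-PF were GK rats that were sham-operated, also at 16 wk of age, with an incision 16 cm from the ligament of Treitz that was closed again. They were then pair-fed, on a ration matched to the operated group that ate least. Wistar were unoperated nondiabetic rats, matched for age, of the outbred stock from which GK rats were bred. The comparison of GK-Sham-PF with Wistar therefore mixed strain, diabetes, sham operation and feeding. That of GK-S-30 with Wistar mixed strain, diabetes, RYGB and feeding after the operation. GK-S-30 and GK-Sham-PF differed in the operation and also in the ration, which was set for GK-Sham-PF alone. All rats were kept on standard chow, except that both GK groups first received water and then a liquid glucose diet after the operation. All were fasted overnight before tissue was taken at 14 wk postoperation. It came from the RL in GK-S-30 and from the corresponding jejunal segment in the other groups. The GK-S-30 and GK-Sham-PF groups are called RL and sham below. The whole segment was extracted, so fewer cells of a type and less RNA per cell cannot be told apart. The labels do not tie each array to a named rat, and the p-values measure the spread between these 15 samples.

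The following probe sequences are shown because the results turn on them, Oat and Arg2 for the enzymes that differed between groups, and Otc and Cps1 for the citrulline-forming enzymes that did not pass the test. Each is 60 bases long and reads as the mRNA does. By the array files' rn4 positions, the Oat, Otc and Cps1 probes cover more genome than their own length, so each crosses at least 1 exon junction.
Oat at 591: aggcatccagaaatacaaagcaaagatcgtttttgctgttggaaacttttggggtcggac
Arg2: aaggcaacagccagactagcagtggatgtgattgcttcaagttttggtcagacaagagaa
Otc: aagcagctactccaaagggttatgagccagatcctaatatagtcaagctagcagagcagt
Cps1: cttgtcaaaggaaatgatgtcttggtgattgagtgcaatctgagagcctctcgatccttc
In rn4, the Oat probe lay on the minus strand at chr1:192034223-192036547. The Arg2 probe lay within 60 contiguous bases of the plus strand at chr6:101927878-101927937. The Otc probe lay on the minus strand at chrX:24619355-24624560, and the Cps1 probe on the plus strand at chr9:66002449-66003777. The other Oat probe started further toward the 3′ end of the same transcript, at chr1:192026857-192026916 on the minus strand.

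Values below are log2 of quantile-normalised array signal, and a difference of 1 is a doubling. Differences were tested with limma across all 17028 named and detected probes, and a probe was called at a Benjamini-Hochberg adjusted p under 0.05. The RL tissue differed from the sham segment in the signal of several cell type markers. Of 7 tested smooth muscle markers, 4 were higher in RL than in sham, with a median difference of 1.45, and their summed signal was 84160 to 108800 against 21570 to 48820 (24550 to 43250 in Wistar). Fibroblast markers were higher for 4 of 6 (18250 to 23520 in sham and 24190 to 27190 in RL), both ileal markers were higher (162.1 to 662.6 and 454.6 to 1481), and 2 of 6 T and B cell markers were lower (3796 to 5761 and 2376 to 3658). These 2 were the T cell genes Cd3e (-0.76) and Cd3d (-0.66). Cd4 (-0.52), Cd8a (-0.40) and the B cell genes Cd79a (0.12) and Cd79b (0.33) were not called. Of 8 enterocyte markers, all above background on every array, 0 were called in that comparison (limma, and 0 at an unadjusted p under 0.05 or by the Tukey test), with summed signals of 1072000 to 1227000 in sham and 1062000 to 1196000 in RL. Their median difference was -0.11, and the largest was that of Lct, at -1.06 (limma adjusted p = 0.270). In RL against Wistar, 1 of them was called lower, Fabp2 (-0.28, limma adjusted p = 0.016), and their median difference was -0.17. The part of these shifts in the results below was not tested. The arrays Wistar 3 and GK-Sham-PF 5 were dimmer than the rest, with a 75th percentile of signal of 207 and 208 against 302 to 357. They also stood apart in the signal of 3′ minus 5′ probes of the same transcript, centred over arrays. Its median over 1934 pairs was -0.13 and -0.11 on these arrays, against -0.05 to 0.05 on the others.

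Oat was the only gene of the 9 that was called between RL and sham. Both of its probes were called, and they were 1.8- to 1.9-fold lower after RYGB. Arg2 was lower in sham than in Wistar, and both Oat probes and Arg2 were lower in RL than in Wistar. None of the other 10 probes was called in any of the 3 comparisons. In RL against sham, 2 of 13 probes were called, both lower, beside 8.36% of all tested probes, and the arrays of the groups did not overlap for 1 probe, beside 8.41% of all. In sham against Wistar, 1 of 13 was called, beside 7.88%, and 1 did not overlap, beside 9.06%. In RL against Wistar, 3 of 13 were called, beside 24.1%, and 3 did not overlap, beside 18.3%. The median difference over the 13 probes was -0.11, 0.03 and -0.05 in these comparisons, and that over all tested probes was -0.02, 0.01 and -0.01. These shares lie near those of the array as a whole, so nothing is read from the counts about the 9 genes as a group. Without both dim arrays, the counts were again 2, 1 and 3.

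**Figure D1:**
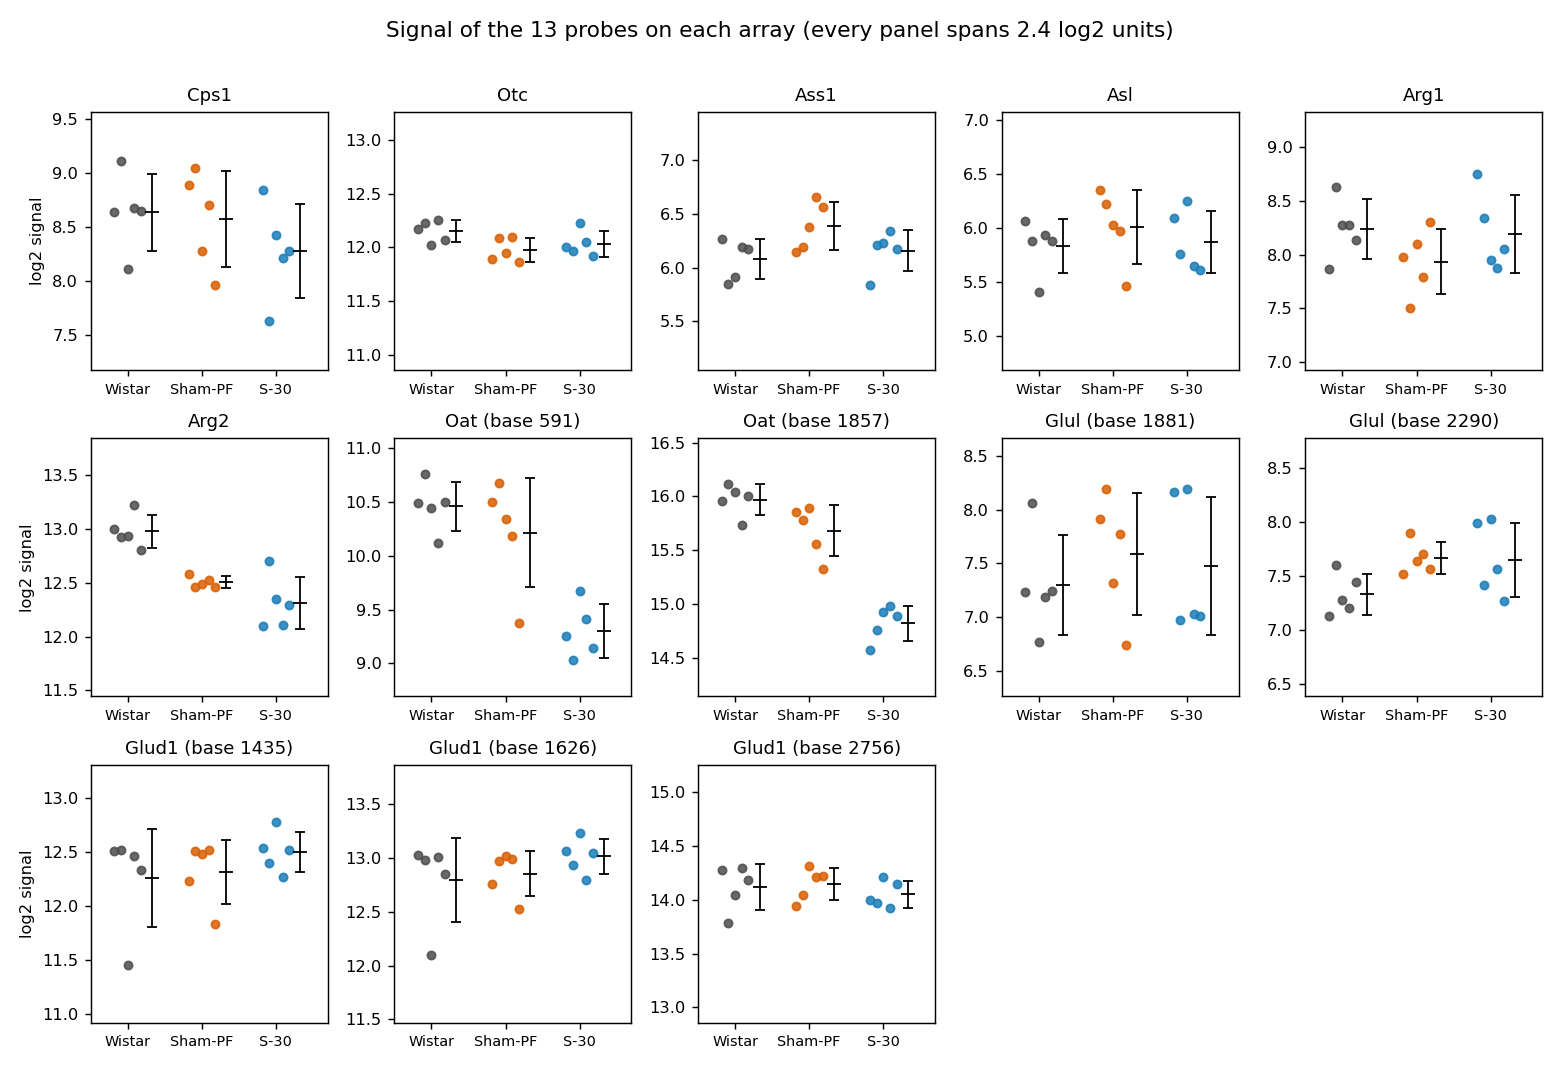
Log2 quantile-normalised signal (y axis, each panel spanning the same 2.4 log2 units) of the 13 probes on each array, 5 points per group, with the group mean and SD as a bar to the right. The 5 RL arrays lie below all others for Oat at base 1857, and the 5 Wistar arrays lie above all others for Arg2.

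Oat, ornithine aminotransferase, links ornithine with pyrroline-5-carboxylate. On the probe at 1857, the Wistar arrays read 15.96, 16.11, 16.04, 15.74 and 16.00. The sham arrays read 15.85, 15.78, 15.90, 15.56 and 15.33. The RL arrays read 14.57, 14.75, 14.92, 14.98 and 14.88. Every RL array was thus below every array of the other groups, while Wistar and sham overlapped. The group means were 15.97 ± 0.14, 15.68 ± 0.24 and 14.82 ± 0.16 (SD, n = 5 each). RL was lower than sham by a log2 difference of -0.86 (SE 0.12, 95% interval -1.12 to -0.60, limma adjusted p = 0.00056), a 1.82-fold lower signal. Against Wistar it was lower by -1.15 (limma adjusted p = 8.05e-06), 2.21-fold. Sham and Wistar differed by -0.29 (interval -0.55 to -0.03), which did not pass the adjusted test (limma adjusted p = 0.196). No spot was marked saturated on any array.

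The Oat probe at 591, whose sequence is printed above, gave differences of like size. The Wistar arrays read 10.49, 10.76, 10.44, 10.12 and 10.50. The sham arrays read 10.50, 10.67, 10.34, 10.19 and 9.37. The RL arrays read 9.26, 9.03, 9.67, 9.41 and 9.14. Of the sham arrays, 4 lay above all RL arrays, and GK-Sham-PF 5, which was 1 of the 2 dim arrays, lay among them. On GK-Sham-PF 5 the Oat probe at 1857 exceeded that at 591 by 5.95, against 5.11 to 5.74 on the other arrays. The cause was not tested. The difference from sham was -0.91 (SE 0.21, interval -1.35 to -0.47, limma adjusted p = 0.0138) and that from Wistar was -1.16 (limma adjusted p = 0.000856). Sham and Wistar differed by -0.25 (interval -0.69 to 0.19, limma adjusted p = 0.586). With both dim arrays left out, an alternative chosen after the data were seen, the difference from sham was -1.13 at 591 and -0.95 at 1857 (limma adjusted p = 0.00088 and 0.00031). Both probes stayed called against sham and against Wistar in all 15 fits that left out 1 array.

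Arg2, the mitochondrial arginase, which makes ornithine from arginine, had its step between Wistar and the GK rats. The Wistar arrays read 13.00, 12.92, 12.94, 13.22 and 12.81. The sham arrays read 12.58, 12.46, 12.49, 12.53 and 12.46. The RL arrays read 12.10, 12.71, 12.35, 12.11 and 12.29. All 5 Wistar arrays stood above all 10 GK arrays, whereas the RL and sham arrays overlapped. Sham was lower than Wistar by -0.47 (SE 0.11, interval -0.71 to -0.23, limma adjusted p = 0.0173), a 1.39-fold lower signal. RL was lower than Wistar by -0.67 (limma adjusted p = 0.000612), 1.59-fold. RL and sham differed by -0.19 (interval -0.44 to 0.05, limma adjusted p = 0.342). The call between sham and Wistar was lost without Wistar 4, with a difference of -0.41 (limma adjusted p = 0.0537). In the same comparison, 2 of 3 tested neutrophil markers were higher in sham (summed signal 219.5 to 430.0 against 58.98 to 358.0 in Wistar), as were 2 of 6 T and B cell markers (3796 to 5761 against 3769 to 5500). The latter were the B cell genes Cd79a (0.82) and Cd79b (0.98), and Cd3e, Cd3d, Cd4 and Cd8a were not called. Of 8 macrophage markers, 1 was higher and 2 were lower (13590 to 14700 against 10980 to 19230). Of 8 enterocyte markers, 0 were called by limma, and 1 passed an unadjusted p under 0.05 and the Tukey test. The part of these cell types in the Arg2 difference was not tested.

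**Figure D2:**
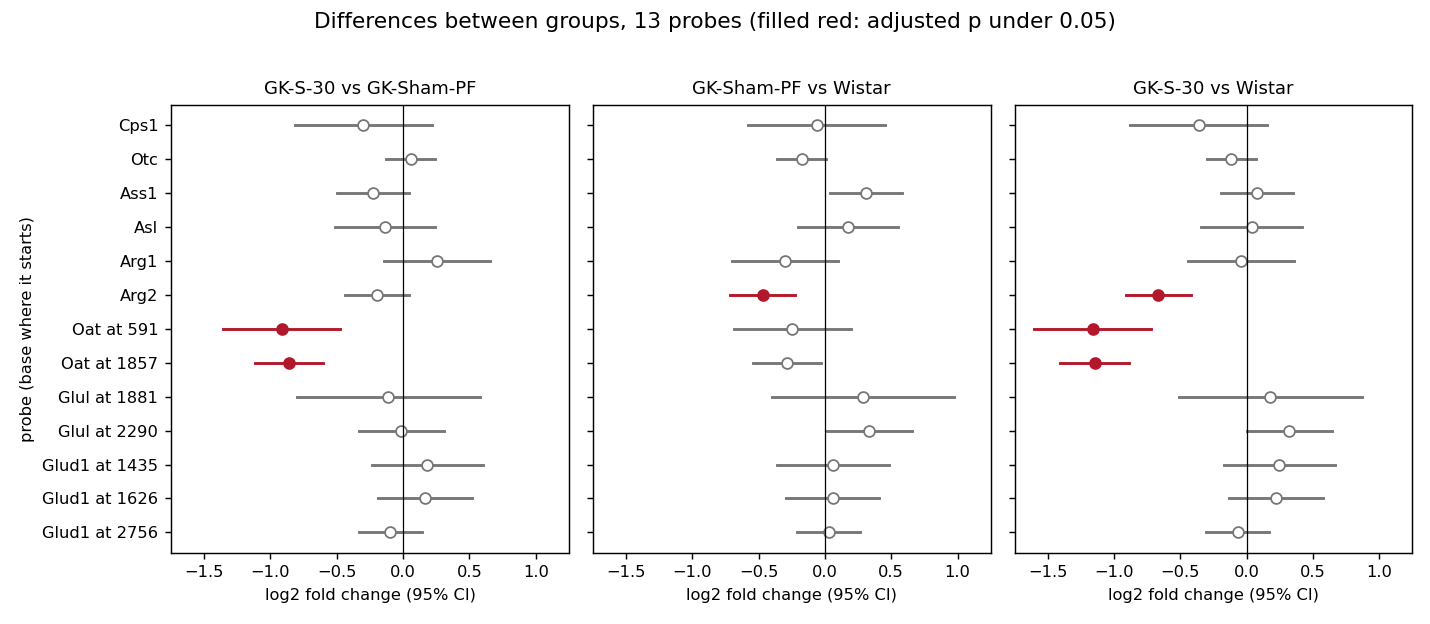
Log2 fold change (x axis, points) with its 95% interval (lines) of each of the 13 probes in the 3 comparisons, each of 5 arrays against 5. Filled red points passed a limma adjusted p under 0.05, and these were both Oat probes (RL against either group) and Arg2 (either GK group against Wistar).

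The arrays were spread unevenly over 4 slides, as the array files identify them. All arrays of slide A (4 Wistar) and of slide D (3 RL) belonged to a single group. Wistar 1 shared slide B with 3 sham arrays, and slide C carried 2 arrays each of sham and RL. A comparison within a slide was therefore possible on slides B and C, and no slide held both Wistar and RL. On slide C, Oat at 1857 read 15.56 and 15.33 in sham and 14.57 and 14.75 in RL, a difference of -0.78. With slide as a block, which left the comparison to these 4 arrays, Oat at 1857 remained called (limma adjusted p = 0.0242). Oat at 591 differed by -0.64 on slide C and was not called (limma adjusted p = 0.265). Arg2 differed by -0.48 between sham and Wistar on slide B, where 1 Wistar array stood against 3, and was not called (limma adjusted p = 0.574). Against Wistar, the RL differences with slide as a block were -0.89 for Oat at 1857, -0.62 for Oat at 591 and -0.58 for Arg2, none of them called (limma adjusted p = 0.086, 0.525 and 0.402). Slide as a random block left all of these calls in place, with an estimated correlation within slides of -0.045. With a negative correlation that fit allows for no shared slide effect, so it cannot separate slide from group.

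**Figure D3:**
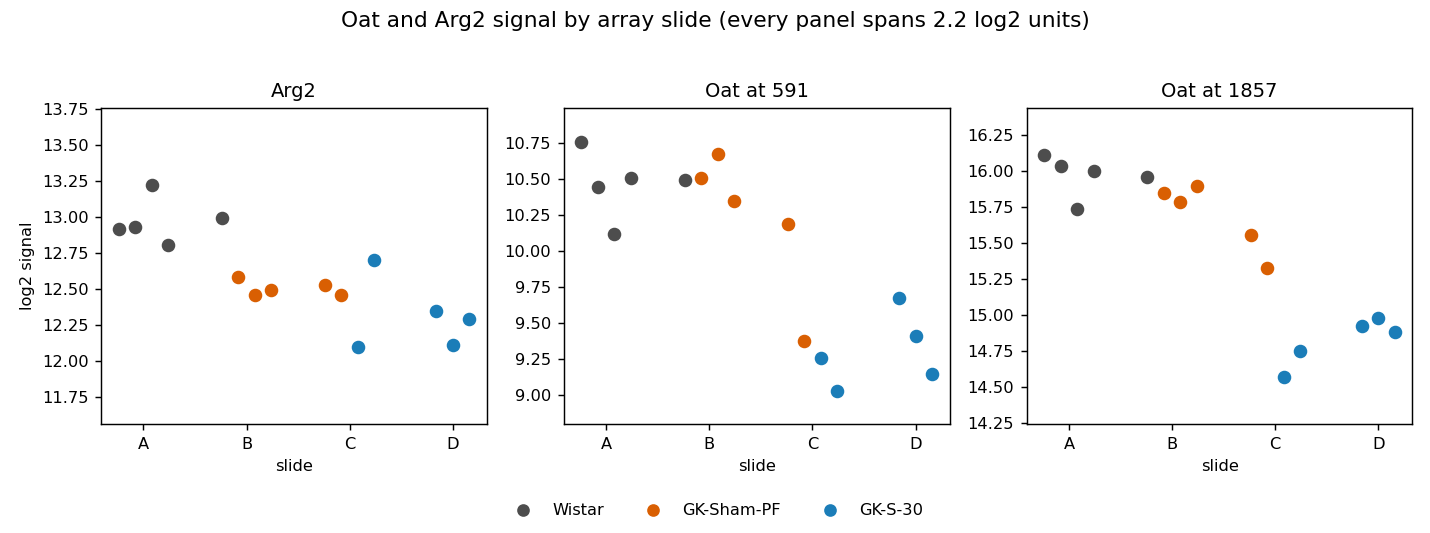
Log2 quantile-normalised signal (y axis, 2.2 log2 units per panel) of both Oat probes and Arg2 by slide (x axis), 1 point per array, coloured by group. On slide C the 2 RL arrays lie below the 2 sham arrays for both Oat probes, with a mean difference of -0.64 for Oat at 591 and -0.78 for Oat at 1857.

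The enzymes that build citrulline from ornithine did not pass the test. Otc, ornithine carbamoyltransferase, had the smallest SE of the 13 probes (0.09). It read 12.02 to 12.26 in Wistar (median 12.17), 11.86 to 12.10 in sham (11.94) and 11.92 to 12.23 in RL (12.00). The difference between RL and sham was 0.06 (interval -0.13 to 0.24, limma adjusted p = 0.762), so a fall of the size seen for Oat lay outside the interval. Cps1, which makes the carbamoyl phosphate that Otc uses, was more spread out, at 8.11 to 9.12 in Wistar, 7.97 to 9.05 in sham and 7.63 to 8.84 in RL. Its difference was -0.30 (interval -0.82 to 0.22, limma adjusted p = 0.523), and the groups overlapped throughout. A fall in Cps1 of up to 0.82 lay within that interval. Without both dim arrays, which gave the lowest Cps1 values of Wistar and sham, the difference was -0.45 (limma adjusted p = 0.202).

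Of the enzymes that turn citrulline into arginine, Ass1 (argininosuccinate synthase) read 5.85 to 6.26 in Wistar, 6.15 to 6.66 in sham and 5.84 to 6.34 in RL. The sham mean was above the Wistar mean by 0.31 (interval 0.04 to 0.58) with an unadjusted p of 0.028, but this did not pass the adjusted test (limma adjusted p = 0.181). The difference between RL and sham was -0.23 (interval -0.50 to 0.04, limma adjusted p = 0.313), and it was -0.59 on slide C. Asl (argininosuccinate lyase) read 5.40 to 6.07, 5.46 to 6.36 and 5.61 to 6.25 in the same order of groups, and its 3 differences were between -0.14 and 0.17. Arg1, the cytosolic arginase best known from liver, read 7.87 to 8.63, 7.50 to 8.30 and 7.87 to 8.75. Its difference was -0.30 between sham and Wistar (interval -0.70 to 0.10) and 0.26 between RL and sham (interval -0.14 to 0.66), neither of them called.

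Among the enzymes of glutamine and glutamate, no probe of Glul or Glud1 was called. Glul at 2290 was higher than in Wistar by 0.33 in sham (interval 0.02 to 0.65, limma adjusted p = 0.227) and by 0.32 in RL (interval 0.00 to 0.64, limma adjusted p = 0.134), and its difference between the GK groups was -0.01 (interval -0.33 to 0.31). Glul at 1881 had the largest SE of the 13 probes (0.32), with 3 RL arrays at 6.98 to 7.03 and the other 2 at 8.17 and 8.19, and its interval between the GK groups ran from -0.80 to 0.58. The 2 Glul probes have no rn4 position in the array files. The 3 Glud1 probes, at chr16:9994290-9995260, chr16:9998014-9998073 and chr16:9999144-9999203 on the plus strand, differed by 0.18, 0.16 and -0.10 between RL and sham, and each interval included 0. Against Wistar, the RL differences were 0.24, 0.22 and -0.07. Without Wistar 3 the first 2 became 0.043 and 0.047, and under 75th percentile scaling the last became 0.023.

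The neighbouring steps of the pathway were taken from a list of 42 genes, of which 34 had a tested probe (43 probes). In RL against sham, 10 of 43 probes were called, 5 higher and 5 lower, beside 8.36% of all tested probes, with a median difference of 0.01. Those that fell included an enzyme and a carrier on the route from glutamate to citrulline. Aldh18a1, which makes pyrroline-5-carboxylate from glutamate and so feeds the Oat reaction, fell by 0.90 (SE 0.16, limma adjusted p = 0.0036). It read 12.44, 12.41, 12.46, 12.08 and 11.79 in sham and 11.34, 11.11, 11.10, 11.73 and 11.43 in RL, with no overlap, and its sham and Wistar values differed by -0.01. Slc25a15, the mitochondrial ornithine carrier, fell by 0.46 (SE 0.12, limma adjusted p = 0.0256). Agmat, annotated as agmatinase, fell by 0.55 (limma adjusted p = 0.0130). Pycr3, a pyrroline-5-carboxylate reductase, fell by 0.44 (limma adjusted p = 0.0026) with no overlap, from 10.33 to 10.49 in sham to 9.84 to 10.05 in RL. It lay outside the naming rule and was named after its values were seen.

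The 5 probes that rose in the same comparison were those of Aldh4a1, Asns, Gls2, Ddah1 and Got1. Gls2, a glutaminase, rose by 0.65 (SE 0.11, limma adjusted p = 0.0024), from 7.11 to 7.39 in sham to 7.72 to 8.31 in RL, with no overlap. Aldh4a1, which oxidises pyrroline-5-carboxylate back to glutamate, rose by 1.01 (SE 0.29, limma adjusted p = 0.0454), a call that was lost in 11 of 15 fits that each left out 1 array. Asns, which uses glutamine to make asparagine, rose by 0.82 (SE 0.21, limma adjusted p = 0.0231). Ddah1, which releases citrulline from dimethylarginine, rose by 0.52 (limma adjusted p = 0.0320), but its difference on slide C was 0.14, where GK-Sham-PF 4 and 5 read 10.49 and 10.48 and the other sham arrays 9.67 to 10.19. Got1, the cytosolic aspartate aminotransferase, rose by 0.38 (limma adjusted p = 0.0312) and was likewise named after its values were seen. Prodh, proline dehydrogenase, had 3 probes, with differences of 0.50, 0.42 and 0.71, none of them called (limma adjusted p = 0.0603, 0.127 and 0.0962). Nags, whose product activates Cps1, differed by 0.17 (interval -0.29 to 0.63). Of the calls named in this comparison, those of Oat, Aldh18a1, Agmat, Pycr3 and Gls2 held whichever array was left out. That of Asns was lost without GK-Sham-PF 1 or 4 or GK-S-30 1, and that of Slc25a15 without GK-Sham-PF 1 or 2 or GK-S-30 1 or 2. The call of Ddah1 was lost without GK-Sham-PF 1, 2 or 3 or GK-S-30 2, 3, 4 or 5. That of Aldh4a1 held only without Wistar 3 or 4, GK-Sham-PF 1 or GK-S-30 4. That of Got1 was lost without GK-Sham-PF 1, 2, 3 or 5 or GK-S-30 1, 2 or 3.

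**Figure D4:**
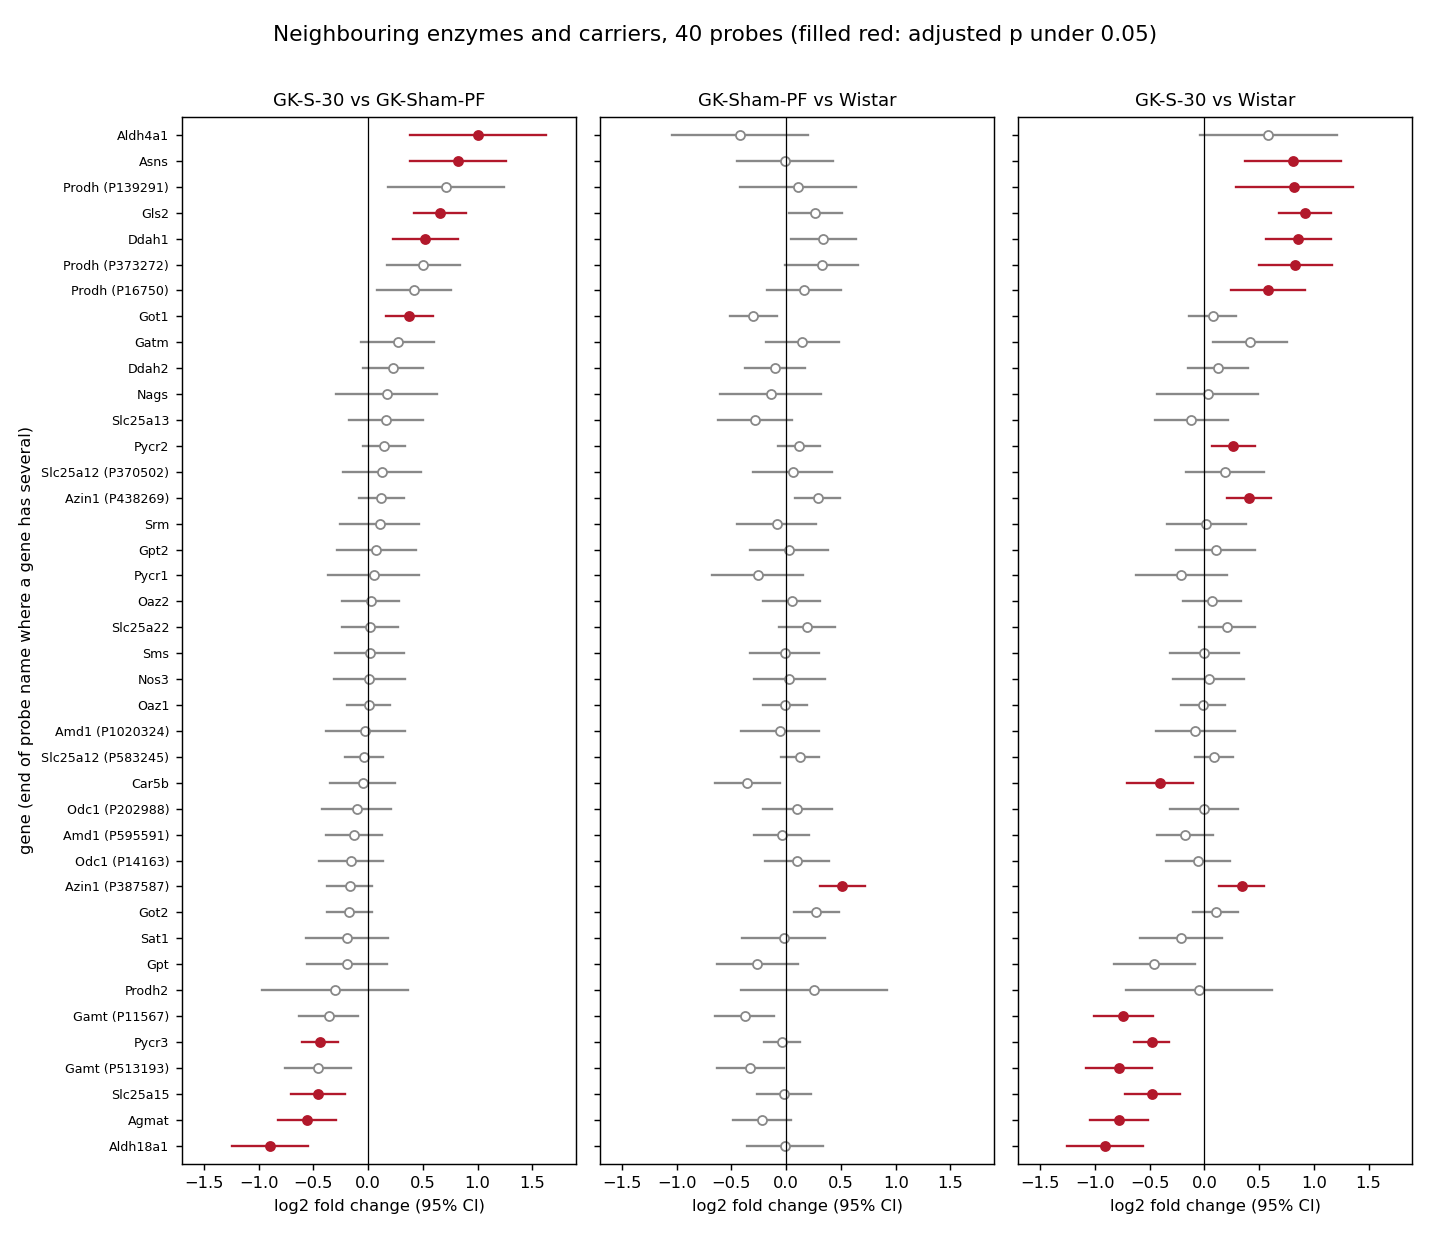
Log2 fold change (x axis, points) with its 95% interval (lines) of 40 tested probes of the neighbouring enzymes and carriers, ordered by their difference between RL and sham. Filled red points passed a limma adjusted p under 0.05, with 9, 1 and 16 of the probes shown called in the 3 comparisons from left to right.

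In sham against Wistar, 2 of 43 probes of the list were called, beside 7.88% of all, with a median difference of -0.01. A probe of Azin1 (A_44_P387587), the antizyme inhibitor that protects ornithine decarboxylase, was higher by 0.51 (SE 0.10, limma adjusted p = 0.0031) with no overlap, at 10.01 to 10.31 in Wistar and 10.54 to 10.92 in sham. The other Azin1 probe was higher by 0.29 and was not called (limma adjusted p = 0.0864), though its arrays did not overlap either. In RL against Wistar, 18 of 43 were called, 9 higher and 9 lower, beside 24.1% of all, with a median difference of 0.02. Among the probes called lower were those of Aldh18a1 (-0.91) and Gamt (-0.78 and -0.74), which makes creatine and had both of its probes called. Among the probes called higher were those of Gls2 (0.92), Ddah1 (0.86) and Prodh, whose 3 probes were all called (0.83, 0.82 and 0.58). The call of the Prodh probe at 0.82 was lost without Wistar 1 or 5 or GK-S-30 1 or 3. Nags differed by 0.03. These comparisons share arrays with each other, so their values stand side by side and are not independent.

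With slide as a block, 0 of 43 probes of the list were called in each comparison (limma, with 8, 3 and 7 at an unadjusted p under 0.05, and 327, 210 and 268 calls over all tested probes), although the called differences of the list kept their sign. On slide C, RL differed from sham by -0.71 for Aldh18a1, -0.50 for Slc25a15, -0.61 for Agmat, 0.73 for Gls2, 1.12 for Aldh4a1 and 0.61 for Asns.

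By pattern over the 15 arrays and among 13022 other genes, the genes most like Oat at 1857 were Ptpn22 (Pearson r = 0.96) and Cabp2 (r = 0.96), and those most like Arg2 were Itih1 (r = 0.94) and Ccs (r = 0.93). The arrays share their group differences and their slides, and these values describe likeness only.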

How the data were processed

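One-colour Agilent rat arrays were scanned and extracted by the authors with Agilent Feature Extraction 10.7, per the labels. The deposited scanner files hold the processed signal intensity, mean signal and local background of each spot. The authors also deposited a matrix of quantile-normalised log2 values. From the 43379 spots outside controls on each array, flagged outlier spots were left out, spots of 1 probe were averaged, and log2 processed signal was quantile-normalised (limma 3.58.1, R 4.3.3). A probe was tested if it was named and if all arrays of 1 or more groups read it well above background (17028 probes of 13023 genes). All 15 arrays entered 1 limma fit (lmFit, eBayes), and p-values were Benjamini-Hochberg adjusted over all tested probes. The number of arrays, 5 per group, limits the precision, with a median SE of 0.149 for a log2 difference. Scripts were checked on simulated data.

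Names were updated through RefSeq (GRCr8) by accession for 17541 probes, by symbol for 3098 and by synonym for 539, and 1325 kept the name in the files. Probe sequences and rn4 positions are those of the array files. Named were all member probes, per comparison up to 4 of the largest called rises and falls of the pathway list, Nags, Aldh18a1 and Prodh in any case, and the 2 genes most correlated with each called member gene's brightest probe. A gene of the pathway list counts in its totals but is not reported here. The members and lists were chosen with earlier results of these data known. Alternatives were 75th percentile scaling, normexp with offset 50, the authors' matrix, other probe filters, slide or replicate number as a block, 2 groups at a time, leaving out each array, and the Tukey test of the study's methods. Figures were drawn with matplotlib 3.10.9.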

Additional observations from a re-analysis of the deposited data

Results flagged for a closer look

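Within the groups of 5 arrays, 39 sets of values (13 probes in 3 groups) were checked for an array far from the others by Dixon's criterion (0.71 for 5 samples), and 2 were found. Chance alone gives about 1 such set in 20. Both were Wistar 3 on a Glud1 probe. Glud1 at 1435 read 11.45 there, with the nearest Wistar array at 12.33, and Glud1 at 1626 read 12.10, with the nearest at 12.86. Wistar 3 was 1 of the 2 dim arrays, and the third Glud1 probe, at 2756, was not among the sets found. The Glud1 probe at 2756 exceeded that at 1435 by 2.59 on Wistar 3 and by 2.38 on GK-Sham-PF 5, the other dim array. On the remaining arrays this gap was 1.26 to 1.85. The median 3′ minus 5′ signal of these 2 arrays went the other way. The cause was not tested.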

How the results depend on the processing

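Under 75th percentile scaling, normexp, the authors' matrix, the probe filters and slide as a random block, the called differences of Oat and Arg2 kept direction and threshold. Slide as a fixed block left 1, 0 and 0 members called (RL vs sham, sham vs Wistar, RL vs Wistar), 0 of the pathway list in each (limma; members at an unadjusted p under 0.05 were 3, 0 and 2), and 327, 210 and 268 of all tested probes. The replicate block gave 0 members in sham vs Wistar (Arg2, limma adjusted p = 0.0559, with 3 members at an unadjusted p under 0.05) and 5 pathway probes in RL vs sham, where calls including those of Aldh4a1, Asns, Slc25a15 and Got1 were lost; same-numbered arrays correlated between -0.29 and 0.20 and 1 of 15 correlated best with its own number, so the numbers do not pair arrays. Fitting 2 groups at a time gave 6 pathway probes in RL vs sham. The methods' Tukey test at p under 0.05 gave 2565 and 2373 of all tested probes in RL vs sham and sham vs Wistar and 6 pathway probes in sham vs Wistar. After Benjamini-Hochberg it gave 565, 827 and 2690 of all, and 1 member and 3 pathway probes in RL vs sham (Oat at 591, adjusted p = 0.0788). Adding unnamed probes gave 2184 and 6352 calls in sham vs Wistar and RL vs Wistar. Leaving out 1 array, members called were 0 to 1 in sham vs Wistar (0 without Wistar 4). In RL vs sham, pathway probes were 5 to 10 and all probes 937 to 1726, lowest without GK-Sham-PF 1 and GK-Sham-PF 2. The causes were not tested, except that slide as a fixed block leaves fewer arrays to each comparison.

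Among the 13 member probes, the sign changed only for differences that were not called. With slide as a fixed block, and the same within slide C or B, these were Asl 0.21, Glul at 1881 0.32 and Glul at 2290 0.066 in RL vs sham, and Cps1 0.10, Ass1 -0.022, Oat at 591 0.014 and Glud1 at 1435, 1626 and 2756 -0.10, -0.11 and -0.18 in sham vs Wistar. In RL vs Wistar, by the fixed block alone, they were Cps1 0.00077, Ass1 -0.61 and Arg1 0.49. Under 75th percentile scaling, RL vs Wistar gave Asl -0.051 and Glud1 at 2756 0.023. Without the 2 dimmest arrays, Glud1 at 1435, 1626 and 2756 gave -0.020, -0.034 and -0.0057 in sham vs Wistar and Asl -0.070 in RL vs Wistar. Leaving out 1 array, the ranges were -0.32 to 0.040 for Glul at 1881 and -0.11 to 0.084 for Glul at 2290 in RL vs sham. They were -0.19 to 0.091 for Cps1 and -0.14 to 0.18, -0.12 to 0.14 and -0.054 to 0.081 for Glud1 at 1435, 1626 and 2756 in sham vs Wistar, and -0.070 to 0.10 for Asl, -0.19 to 0.053 for Arg1 and -0.0022 to 0.37 for Glul at 1881 in RL vs Wistar.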
